A study of Mus musculus with 51 samples.

Results

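The genes described here are 47 markers and effectors of the cell cycle and mitosis, listed by symbol, and they were read on whole-lung expression arrays of mice exposed to methylene diphenyl diisocyanate (MDI, a building block of polyurethane that can sensitize the airways). Each symbol was taken through the probe set annotated to it. Of the 47 genes 44 were measured, with 1 probe set each, out of 22206 probe sets on the array, and Ccnb1, Mcm7 and Foxm1 were not analysed here. The mice were males aged 6 to 8 weeks, and before any airway exposure the skin of all of them, controls included, had received 1% MDI in acetone on 2 occasions. Airway exposures followed on days 15, 16, 19 and 20. MDI mice received reaction products of MDI with glutathione through the nose, under isoflurane, and control mice a solution in which MDI and glutathione had been reacted apart from each other, and the lungs were perfused, lavaged and collected 48 h after the last exposure.

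The 8 groups were BALB/c mice given MDI (3 arrays) or control (3), B-cell deficient mice given MDI (7) or control (9), C57BL/6 mice given crofelemer and then MDI (3) or control (5), and C57BL/6 mice given MDI (13) or control (6) without it. B-cell deficient mice were of the strain B6.129S2-Ighmtm1Cgn/J, which lacks a working immunoglobulin mu heavy chain. Crofelemer, an inhibitor of chloride channels, was given through the nose at 4 mg/kg, 4 h before each exposure. Nothing says how many animals stand behind an array, and p-values measure the spread between arrays.

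A dividing cell licenses its replication origins, copies its DNA, condenses and aligns its chromosomes and splits. Each step has its own wave of transcripts. E2F factors drive the genes of licensing, replication and nucleotide synthesis around the start of S phase. The DREAM complex first silences the genes of mitosis, and MuvB with B-Myb and FoxM1 later drives them, through a short promoter element called the CHR. Most cells of an adult lung are at rest, and in inflamed lung dividing macrophages, lymphocytes, epithelium, endothelium and fibroblasts can all carry these transcripts. In whole lung, more cells of a dividing type and more RNA per cell cannot be told apart.

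The promoters of 6 members are shown as examples of the letters counted below, 5 from genes of mitosis and proliferation and 1, Mcm6, from the licensing genes. Each sequence covers the 120 bases before the RefSeq start site (assembly GRCm38.p6), read 5′ to 3′ in the direction of the gene. The stretches lie at chr7:135716380-135716499 for Mki67, chr10:69352913-69353032 for Cdk1, chr4:118437344-118437463 for Cdc20, chr11:99024190-99024309 for Top2a and chr1:128359706-128359825 for Mcm6, all on the minus strand, and at chr2:164769809-164769928 for Ube2c on the plus strand. Capitals mark the CHR letters TTTGAA, the CCAAT box letters CCAAT and the E2F letters TTTCCCGC, TTTCGCGC, TTTGCCGC and TTTGGCGC, on either strand, so that TTCAAA and ATTGG are the first and second motif read from the other strand. In Mcm6 a pair of E2F matches on opposite strands overlap and appear as 1 run of capitals.
Mki67: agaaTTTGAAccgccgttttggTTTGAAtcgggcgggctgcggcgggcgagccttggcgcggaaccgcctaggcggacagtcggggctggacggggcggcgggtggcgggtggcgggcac
Cdk1: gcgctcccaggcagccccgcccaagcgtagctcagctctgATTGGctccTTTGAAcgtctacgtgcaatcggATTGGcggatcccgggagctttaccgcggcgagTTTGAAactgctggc
Cdc20: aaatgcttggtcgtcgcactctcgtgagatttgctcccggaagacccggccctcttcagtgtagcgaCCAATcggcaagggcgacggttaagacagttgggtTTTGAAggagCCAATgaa
Top2a: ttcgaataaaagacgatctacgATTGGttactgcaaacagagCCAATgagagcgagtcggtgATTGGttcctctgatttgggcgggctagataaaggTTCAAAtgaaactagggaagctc
Ube2c: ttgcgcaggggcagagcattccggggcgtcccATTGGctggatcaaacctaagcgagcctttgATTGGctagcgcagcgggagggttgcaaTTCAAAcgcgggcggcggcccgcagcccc
Mcm6: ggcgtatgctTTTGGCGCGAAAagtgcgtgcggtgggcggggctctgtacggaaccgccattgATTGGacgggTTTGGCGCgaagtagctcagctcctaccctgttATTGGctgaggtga

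RefSeq windows of 300 bases (250 before to 50 after the start) were at hand for 37 of the 44 measured members. The CHR letters occurred in 19 of these 37 windows (51.4%), against 17.8% of the 15691 arrayed genes with a window. At least 2 CCAAT boxes occurred in 16 of the 37 (43.2%), against 14.4% of all, and E2F letters in 6 (16.2%), against 3.38%. By role, the CHR letters were found in 4 of 5 mitotic kinases, 4 of 5 spindle and cytokinesis genes, both mitotic exit genes and 5 of 8 kinetochore and chromosome genes, but in 1 of 7 licensing and replication genes and 0 of 4 nucleotide synthesis genes. The E2F letters were found in 5 of the 7 licensing and replication genes and in Cdk1. A match is a stretch of letters and no measured binding site.

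Signals are given as deposited, on a log2 scale inferred from their range. Array means lay at 7.37 to 7.40 in BALB/c mice, 8.02 to 8.07 in B-cell deficient mice, 7.435 to 7.476 in C57BL/6 mice with crofelemer and 7.480 to 7.515 in C57BL/6 mice without it, so the sets look separately normalized. Comparisons of MDI with control stay inside a set, while comparisons of crofelemer with none cross 2 sets. Contrasts of MDI effects between kinds of mice cross 2 sets as well. The SD of the values on an array was 2.854 to 3.059 in B-cell deficient controls and 3.211 to 3.289 in C57BL/6 controls. A difference of scale between sets would not cancel in such a contrast. Lung identity was clear, with the surfactant gene Sftpc at 19.19 ± 0.05 in B-cell deficient controls and 19.57 ± 0.05 in C57BL/6 controls (SD, n = 9 and 6), and the mean of the 4 B-cell markers was 4.98 to 5.93 on B-cell deficient arrays with MDI and 5.33 to 5.59 on their controls, against 8.30 to 9.32 on C57BL/6 control arrays. The arrays standing apart were 4 B-cell deficient controls (1, 2, 5 and 6), with a narrower spread of values, C57BL/6 MDI array 1, which differed from arrays of its group by up to 0.62 on average, and C57BL/6 control array 2, described below. C57BL/6 MDI array 14 carries 1 label that names the control exposure, against its other labels. A gene is called where limma's adjusted p, over all 22206 probe sets, is under 0.05.

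In C57BL/6 mice the MDI exposure came with higher signals of most cell cycle genes. Of the 44 members 32 rose and 12 were not called, with a median difference of 0.93 (log2). Of all probe sets 5.3% rose and 9.23% fell, and the median difference of all of them was 0.01. The rise took in all 7 spindle and cytokinesis genes and all 4 nucleotide synthesis genes, 7 of 8 kinetochore and chromosome genes, 4 of 6 mitotic kinases, 4 of 5 cyclin and Cdk1 genes, but 3 of 9 licensing and replication genes. The median difference was 1.20 for the spindle and cytokinesis genes and 0.34 for the licensing and replication genes.

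Mki67, which encodes the proliferation antigen Ki-67 that coats mitotic chromosomes, showed the largest difference of the 44. Its signal was 10.87 to 13.02 with a median of 11.87 on the 13 MDI arrays, against 9.04 to 11.08 with a median of 9.32 on the 6 control arrays, a rise of 2.19 ± 0.31 (adjusted p = 1.35e-06), or 4.57-fold. The groups overlapped through control array 2, at 11.08, while the other 5 controls lay below every MDI array. Ube2c, the ubiquitin-conjugating enzyme that works with the anaphase-promoting complex, measured 6.98 to 10.10 with a median of 8.26 under MDI and 5.80 to 8.38 with a median of 6.46 under control, and rose by 1.83 ± 0.42 (adjusted p = 0.00186). Here too the highest control was array 2, at 8.38, inside the MDI range.

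Among the cyclins, Ccnb2 (cyclin B2, a partner of Cdk1 in mitosis) was at 8.44 to 10.27 with a median of 9.15 on MDI arrays and 7.37 to 9.30 with a median of 7.68 on controls, and rose by 1.29 ± 0.28 (adjusted p = 0.00102). Ccna2 (cyclin A2, of S phase and G2) rose by 1.58 ± 0.33 (adjusted p = 0.000631) and Cdk1, the kinase that starts mitosis, by 1.26 ± 0.30 (adjusted p = 0.00283). Ccne1 (cyclin E1, of the G1 to S transition) rose by less, 0.58 ± 0.20 (adjusted p = 0.0407), and its relative Ccne2, at 0.72 ± 0.26 (adjusted p = 0.053), missed the threshold.

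Among the mitotic kinases, Plk1 (polo-like kinase 1, needed for spindle assembly and mitotic exit) was at 7.68 to 10.38 with a median of 8.93 under MDI and 7.09 to 8.58 with a median of 7.41 under control, a rise of 1.25 ± 0.36 (adjusted p = 0.0124). Bub1b, of the spindle checkpoint, rose by 1.28 ± 0.27, Aurkb, the kinase of the chromosomal passenger complex, by 0.99 ± 0.22, and Aurka, the centrosome kinase, by 0.70 ± 0.22. The checkpoint kinases Bub1, at 0.87 ± 0.33 (adjusted p = 0.0647), and Ttk, at 0.52 ± 0.23 (adjusted p = 0.121), were not called. Birc5 (survivin, of the passenger complex) was the 1 member without overlap, with a lowest MDI signal of 7.36 and a highest control signal of 6.97, and rose by 0.98 ± 0.17 (adjusted p = 5.74e-05). Groups without overlap, higher under MDI, made up 0.459% of all probe sets.

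At the kinetochore, Nuf2, a subunit of the NDC80 complex that grips microtubules, was at 7.67 to 9.50 with a median of 8.52 on MDI arrays and 6.76 to 8.34 with a median of 7.12 on control arrays, and rose by 1.15 ± 0.30 (adjusted p = 0.00607). Its partners Ndc80 and Spc25 rose by 0.95 ± 0.23 and 0.96 ± 0.27, and the motor Cenpe by 1.42 ± 0.30. Kif23, a kinesin of the central spindle, was at 8.99 to 10.78 with a median of 10.07 under MDI and 8.71 to 9.97 with a median of 8.93 under control, a rise of 1.03 ± 0.23 (adjusted p = 0.00161). The spindle motor Kif11, by 1.60 ± 0.26, and the microtubule-binding protein Nusap1, by 1.49 ± 0.27, rose most among the spindle genes.

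In the licensing and replication genes, Pcna, the sliding clamp of DNA polymerase, was at 13.82 to 15.10 with a median of 14.52 on MDI arrays and 13.59 to 14.18 with a median of 14.02 on controls, and rose by 0.53 ± 0.16 (adjusted p = 0.0186). The helicase subunits Mcm5 and Mcm6 rose by 0.71 ± 0.25 and 0.92 ± 0.19, and their fellow subunits Mcm2, Mcm3 and Mcm4 had 0.34 ± 0.23, 0.27 ± 0.22 and 0.10 ± 0.18, with none called. The loading factors Cdc6, at 0.55 ± 0.21, and Cdt1, at 0.27 ± 0.21, were not called either. Rrm1, the large subunit of ribonucleotide reductase, was at 9.35 to 10.68 with a median of 9.84 under MDI and 8.73 to 9.55 with a median of 9.27 under control, and rose by 0.67 ± 0.20 (adjusted p = 0.0156), and its partner Rrm2 by 1.07 ± 0.28. E2f1, a transcription factor of S phase entry, had the smallest difference of the 44, -0.02 ± 0.18 (adjusted p = 0.963), with 4.31 to 5.66 with a median of 5.02 on MDI arrays and 4.56 to 5.40 with a median of 4.89 on controls, and the 95% interval of its difference ran from -0.37 to 0.33.

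**Figure D1:**
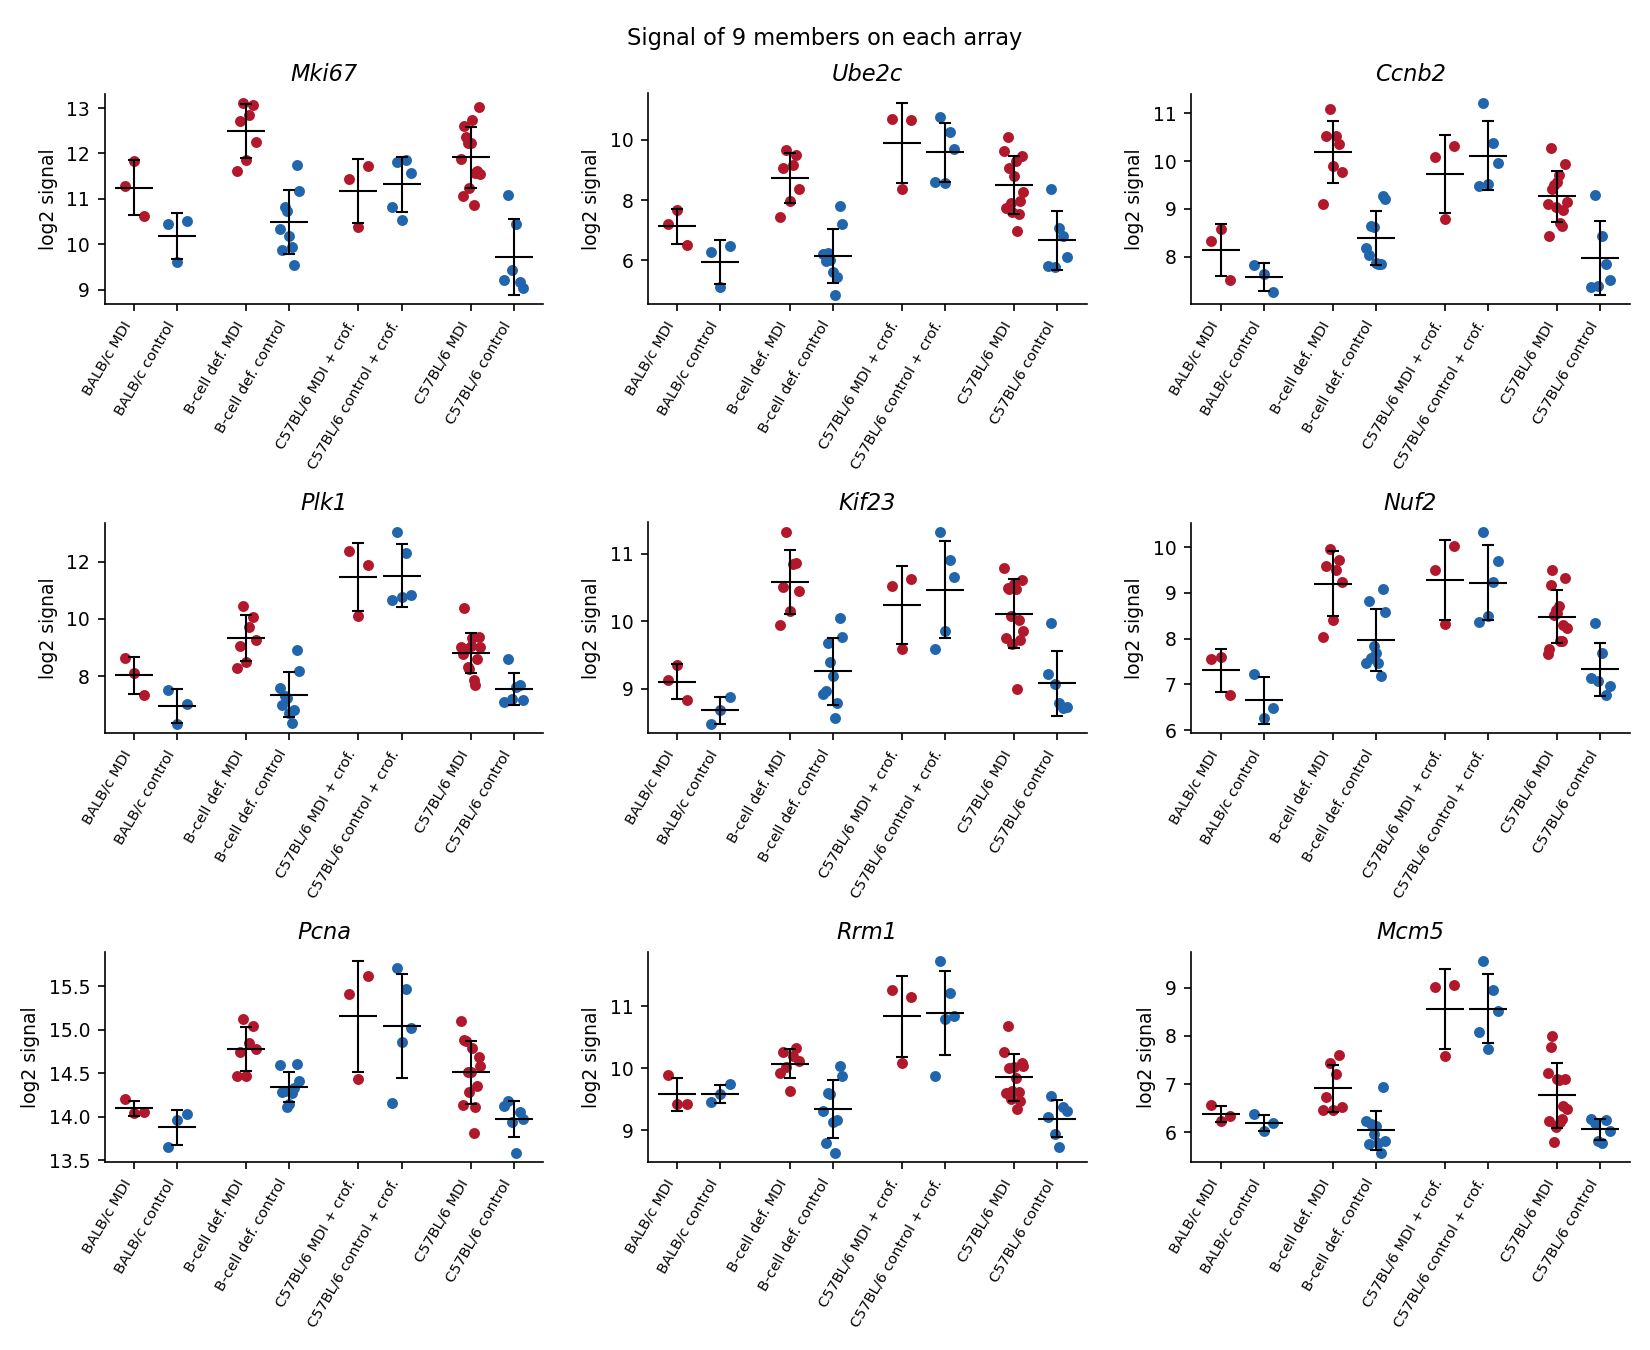
Log2 signal on each array (vertical axis) of 9 members, with MDI arrays in red and control arrays in blue, and the black bar and whiskers giving group mean and SD. Mki67 lies at 10.87 to 13.02 on C57BL/6 MDI arrays and 9.04 to 11.08 on their controls, while its crofelemer groups overlap.

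The mean over the 44 members was 7.14 to 8.51 on the MDI arrays and 6.59 to 7.50 on the control arrays, where control array 2 had 7.50 and the other 5 at most 6.87. Without that array 31 members rose, without MDI array 1 31 and without MDI array 14 33. The runs of consecutive records may mark batches. Within the first run, with 12 MDI arrays and 4 controls, 19 members rose, with a median of 0.84, and the third run, with 1 MDI array and 2 controls, is too small for a value of its own. Shares of all probe sets called in these smaller fits are not given here, so the counts describe the members alone. Markers of other cells differed in the same arrays. Of the T cell markers 4 of 7 rose, and their mean was 7.61 to 8.84 on MDI arrays and 7.27 to 8.03 on controls. Of the macrophage markers 4 of 6 rose (10.89 to 11.72, against 10.00 to 11.10), and of the fibroblast markers 2 of 3 rose. Of the dendritic cell markers 3 of 5 rose (6.23 to 7.08, against 5.93 to 6.58) and of the eosinophil markers 2 of 4 (6.90 to 8.84, against 6.08 to 7.09). All 4 endothelial markers and 1 of 3 neutrophil markers fell. Their part in the cell cycle result was not tested.

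**Figure D2:**
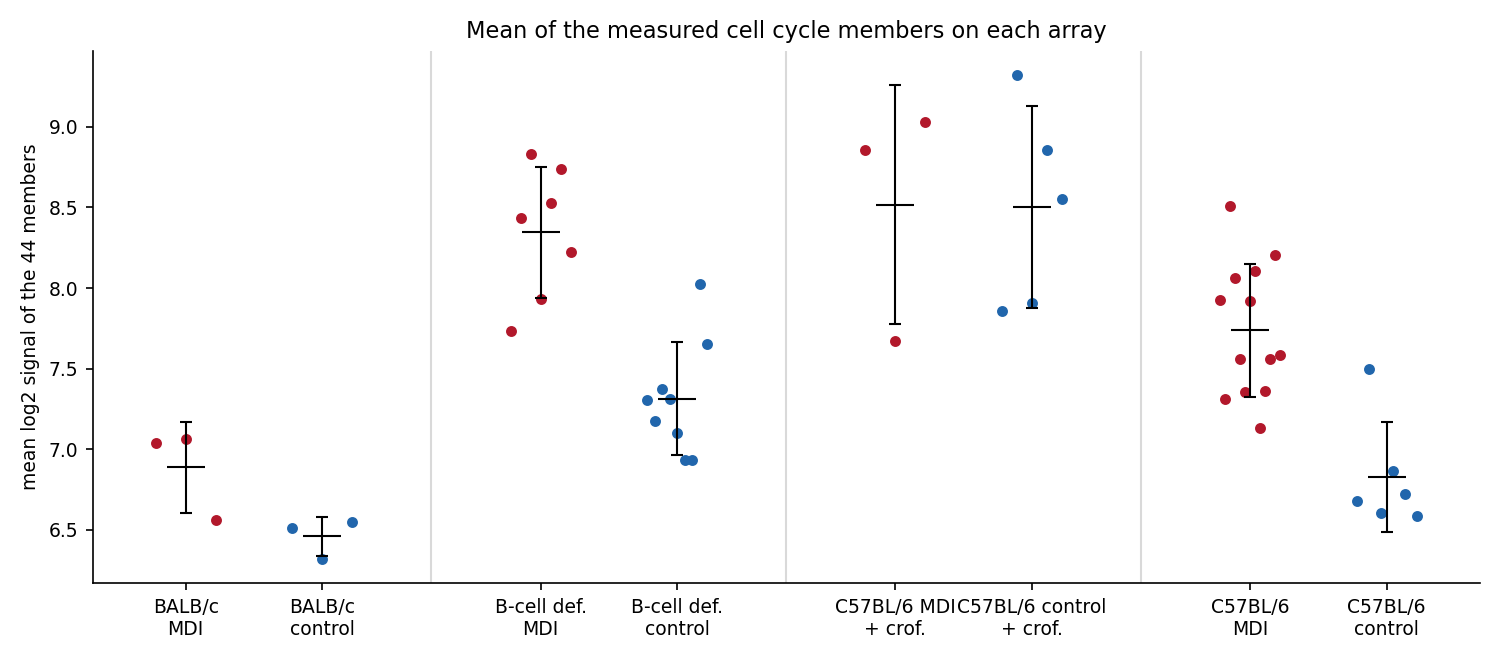
Mean log2 signal of the 44 measured members on each array (vertical axis), by group, with MDI arrays in red and control arrays in blue, and the black bar and whiskers giving the group mean and SD. The C57BL/6 MDI arrays lie at 7.14 to 8.51 and their controls at 6.59 to 7.50, while both crofelemer groups overlap, at 7.67 to 9.03 with MDI and 7.86 to 9.32 with control. Levels of different sets of mice should not be compared, since the sets look separately normalized.

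In B-cell deficient mice 36 of the 44 members rose under MDI, none fell and 8 were not called, with a median of 1.03, while of all probe sets 16.2% rose and 20.7% fell. All 7 spindle and cytokinesis genes, all 4 nucleotide synthesis genes, both mitotic exit genes and 5 of 9 licensing and replication genes were among them. Ube2c had the largest difference. Its signal was 7.44 to 9.66 with a median of 9.07 on 7 MDI arrays, against 4.87 to 7.82 with a median of 6.00 on 9 controls, a rise of 2.57 ± 0.43 (adjusted p = 7.56e-06), or 5.95-fold. The groups overlapped between 7.44 and 7.82.

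Mki67 measured 11.62 to 13.11 with a median of 12.71 under MDI and 9.55 to 11.75 with a median of 10.34 under control in these mice, and rose by 2.01 ± 0.31 (adjusted p = 2.17e-06). The highest control, 11.75, reached past the lowest MDI array, 11.62. Plk1 was at 8.28 to 10.45 with a median of 9.25 on MDI arrays and 6.37 to 8.90 with a median of 7.24 on controls, a rise of 1.98 ± 0.36 (adjusted p = 3.66e-05), and Ccnb2 at 9.10 to 11.09 with a median of 10.36, against 7.84 to 9.26 with a median of 8.19, a rise of 1.79 ± 0.29 (adjusted p = 3.7e-06). The groups overlapped from 8.28 to 8.90 for Plk1 and from 9.10 to 9.26 for Ccnb2, with control array 8 the highest control for both.

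Aurkb, Birc5, Mcm6 and Rrm2 showed no overlap between MDI and control arrays, and such groups, higher under MDI, made up 4.67% of all probe sets. Mcm6, a subunit of the replicative helicase, had the smallest adjusted p of the members, with a rise of 1.33 ± 0.19 (adjusted p = 3.48e-07). Kif23 was at 9.94 to 11.32 with a median of 10.51 under MDI and 8.56 to 10.04 with a median of 9.18 under control, and rose by 1.33 ± 0.24, and Nuf2, at 8.03 to 9.95 with a median of 9.51, against 7.18 to 9.09 with a median of 7.68, by 1.23 ± 0.31. Pcna, at 14.47 to 15.12 with a median of 14.78 on MDI arrays and 14.11 to 14.61 with a median of 14.30 on controls, rose by 0.44 ± 0.16, and Rrm1, at 9.64 to 10.33 with a median of 10.11, against 8.64 to 10.04 with a median of 9.31, by 0.72 ± 0.20. Gins2, a subunit of the GINS complex of the replication fork, had the smallest difference, -0.08 ± 0.16 (adjusted p = 0.724), with 5.35 to 5.76 with a median of 5.44 under MDI and 5.09 to 5.96 with a median of 5.54 under control.

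The 2 genotypes share no arrays, and 31 members rose in both. Those 31 are 86.1% of the 36 that rose in B-cell deficient mice and 96.9% of the 32 that rose in C57BL/6 mice. Over all probe sets 732 rose in both, which is 20.3% of the 3604 that rose in B-cell deficient mice and 62.2% of the 1176 that rose in C57BL/6 mice. Cdc20, Cdt1, E2f1, Mcm3 and Ttk were called in B-cell deficient mice and not in C57BL/6 mice, and Ccne1 the other way. Bub1, Ccne2, Cdc6, Cdca8, Gins2, Mcm2 and Mcm4 were called in neither. A difference in calls is no difference in effect, and the effects themselves were compared by their contrast.

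In that contrast, the MDI effect in B-cell deficient mice minus that in C57BL/6 mice, 1 member of 44 was called, against 9.27% of all probe sets called higher and 11% lower, and the median of the members was 0.06. The 1 called was Ttk, the spindle checkpoint kinase also known as Mps1, with a difference of effects of 0.87 ± 0.32 (adjusted p = 0.0478). Its signal was 5.28 to 6.54 with a median of 6.25 on B-cell deficient MDI arrays and 4.12 to 5.29 with a median of 4.56 on their controls, and 4.78 to 6.19 with a median of 5.51 on C57BL/6 MDI arrays and 4.68 to 5.52 with a median of 4.90 on their controls. The call was lost in 22 of 35 fits that each left out 1 array, without the 4 narrow controls (0.65, adjusted p = 0.306), with the arrays centred on their medians (0.78, adjusted p = 0.069) and with the record run as a term (0.90, adjusted p = 0.115). For Cdc20, the activator of the anaphase-promoting complex, the difference of effects was 0.80 ± 0.45 (adjusted p = 0.2).

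Without the 4 narrow controls 26 members rose in B-cell deficient mice, and within the second run of records, with 3 MDI arrays and all 9 controls, 38 rose, with a median of 1.25. Shares of all probe sets called in these fits are not given here, so the counts describe the members alone. Of this genotype the first run holds MDI arrays and no control. Other cell types differed with MDI here too. Of 7 T cell markers 6 rose, and their mean was 8.70 to 9.45 on MDI arrays and 7.48 to 8.09 on controls, without overlap. Of 6 macrophage markers 5 rose (11.29 to 11.80, against 9.61 to 10.62), and all 4 eosinophil markers rose (8.61 to 9.77, against 7.26 to 8.05). Of 5 dendritic cell markers 4 rose (7.99 to 8.30, against 6.98 to 7.70) and of 3 fibroblast markers 2 (14.23 to 14.89, against 13.40 to 14.31). All 4 markers of the endothelial list fell. Cldn5, an endothelial gene kept in a list of lung tissue markers, was not called, at 14.18 to 14.47 under MDI and 13.48 to 14.43 under control. The part of these markers in the cell cycle result was not tested.

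In BALB/c mice, with 3 arrays a group, limma called none of the 44 members, and 2 had an unadjusted p under 0.05. The background was 0.261% of all probe sets called higher and 0.0405% called lower. The differences were positive for 41 members with a median of 0.43, against -0.01 over all probe sets. The groups did not overlap for 12 members, all higher under MDI, against 7.48% of all probe sets. Mki67 was at 11.28, 11.83 and 10.63 on MDI arrays and 10.44, 9.61 and 10.52 on controls, so the lowest MDI array lay just above the highest control, with a difference of 1.06 ± 0.51 (adjusted p = 0.849). Ube2c had the largest difference, 1.18 ± 0.70 (adjusted p = 0.999), with 7.22, 7.67 and 6.52 under MDI and 6.27, 5.13 and 6.48 under control.

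The third BALB/c MDI array was lowest of its group for Mki67, Ube2c, Ccnb2, Plk1, Kif23 and Nuf2. Plk1 measured 8.62, 8.12 and 7.34 on MDI arrays and 7.51, 6.34 and 7.03 on controls, with a difference of 1.07 ± 0.59. Kif23 measured 9.12, 9.35 and 8.83 under MDI and 8.48, 8.68 and 8.88 under control, and Nuf2 7.55, 7.61 and 6.76 under MDI and 7.24, 6.26 and 6.48 under control. These groups overlapped. Pcna was at 14.20, 14.04 and 14.06 under MDI and 13.65, 13.96 and 14.03 under control, without overlap but with a difference of only 0.22 ± 0.27. Rrm1 was at 9.89, 9.43 and 9.43 under MDI and 9.45, 9.58 and 9.74 under control. Ccne2 had the lowest difference of the 44, -0.04 ± 0.43, with 5.75, 6.02 and 5.10 under MDI and 5.56, 5.81 and 5.61 under control.

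The contrast of the MDI effect in BALB/c mice minus that in C57BL/6 mice called 0 members (3 at an unadjusted p under 0.05), against 0.027% of all probe sets in either direction. Its median over the members was -0.49, and it was negative for 40 of the 44. The largest difference was that of Kif11, -1.21 ± 0.50 (adjusted p = 0.524), with a 95% interval of -2.20 to -0.21. The SEs ran from 0.29 to 0.81, and the 95% intervals of the 44 differences spanned -2.42 to 1.43. Of 6 macrophage markers 2 rose under MDI in BALB/c mice, C1qa and C1qb, with a mean of the 6 of 10.26 to 10.66 on MDI arrays and 9.11 to 9.52 on controls, and their part in the cell cycle values was not tested.

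Under crofelemer the MDI exposure went with no detected difference in these genes. Limma called 0 of the 44 members, 0 had an unadjusted p under 0.05, and the background was 0.036% of probe sets higher and 0.018% lower. The differences were positive for 22 members, with a median of 0.00. Mki67 was at 11.43, 10.38 and 11.73 on the 3 MDI arrays and 10.82, 11.82, 10.53, 11.86 and 11.56 on the 5 controls, a difference of -0.14 ± 0.45 (adjusted p = 0.974). The groups overlapped for every member.

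Plk1 was at 12.36, 10.11 and 11.89 under MDI and 10.64, 13.03, 10.76, 12.30 and 10.82 under control, and Ube2c at 10.67, 8.37 and 10.64 under MDI and 8.61, 10.76, 8.56, 10.27 and 9.70 under control. The second MDI array was the lowest of its group for both. Cdt1, which loads the helicase onto origins, had the largest difference, 0.60 ± 0.31 (adjusted p = 0.639), with 9.68, 8.21 and 9.18 on MDI arrays and 8.11, 8.79, 7.87, 8.79 and 8.58 on controls, and Ccnb2 the lowest, -0.39 ± 0.42 (adjusted p = 0.887), with 10.08, 8.79 and 10.31 under MDI and 9.48, 11.21, 9.53, 10.38 and 9.96 under control. The 95% intervals of the 44 differences spanned -1.22 to 1.56, and those of 8 members reached 1, so for these a rise of 1 log2 unit lies within the interval. The mean over the members was 7.67 on the second MDI array, against 8.86 and 9.03 on the other MDI arrays and 7.86 to 9.32 on the controls. No marker of another cell type was called in this comparison.

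The contrast of the MDI effect under crofelemer minus that without it called 1 member, Mki67, with a difference of effects of -2.33 ± 0.55 (adjusted p = 0.0343), against 0.243% of all probe sets called lower and 0.18% higher. Its median over the members was -0.85, 41 of the 44 differences were negative, and 25 members had an unadjusted p under 0.05. Next came Nusap1, at -1.83 ± 0.48 (adjusted p = 0.0646), and Ccnb2, at -1.68 ± 0.50 (adjusted p = 0.126), neither called. The Mki67 call was lost in 9 of 27 fits that each left out 1 array and in 3 of 9 other settings, with adjusted p up to 0.674. Without C57BL/6 control array 2 the contrast called 4 members, Mki67, Ccnb2, Nusap1 and Tpx2.

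Among control mice, 41 of the 44 members were higher with crofelemer than without it, with a median difference of 1.63, while 17.6% of all probe sets were higher and 21.4% lower. These 2 groups belong to sets that look separately normalized, so the processing of the sets and crofelemer cannot be told apart. Their groups did not overlap for 29 members, against 7.6% of all probe sets. All 9 licensing and replication genes, all 5 cyclin and Cdk1 genes and all 7 spindle and cytokinesis genes were higher, and Cenpe, Ndc80 and Ttk were not called.

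Plk1 had the largest difference, with 10.64, 13.03, 10.76, 12.30 and 10.82 on the 5 control arrays with crofelemer and 7.09 to 8.58 with a median of 7.41 on the 6 without it, higher by 3.95 ± 0.44 (adjusted p = 1.75e-10). No array of one group reached the other. Cdk1 followed, with 6.49, 8.10, 6.71, 8.02 and 7.09 with crofelemer and 3.44 to 5.48 with a median of 4.16 without it, higher by 2.98 ± 0.37 (adjusted p = 4.68e-09), again with no overlap. Ube2c was higher by 2.92 ± 0.52, Rrm2 by 2.78 ± 0.34, Cdc20 by 2.67 ± 0.39 and Mcm5 by 2.50 ± 0.31, and 12 members in all differed by 4-fold or more.

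Mki67, which led under MDI in C57BL/6 mice, was at 10.82, 11.82, 10.53, 11.86 and 11.56 with crofelemer and 9.04 to 11.08 with a median of 9.32 without it, higher by 1.59 ± 0.38 (adjusted p = 0.000576), and its groups overlapped. Of the 12 members not called for MDI in C57BL/6 mice, 11 were called here, all but Ttk. Both comparisons use the same 6 control arrays. For Mcm2 the difference was 1.77 ± 0.28 with crofelemer in control mice and 0.34 ± 0.23 with MDI, for Cdc6 it was 2.00 ± 0.25 with crofelemer and 0.55 ± 0.21 with MDI, and for E2f1 1.45 ± 0.22 with crofelemer and -0.02 ± 0.18 with MDI.

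In the same arrays all 4 B-cell markers were lower with crofelemer, with a mean of 6.65 to 6.88, against 8.30 to 9.32 without it, 2 of 7 T cell markers were lower, all 4 endothelial markers were lower, and of 3 fibroblast markers 2 were higher and 1, Dcn, lower (mean of the 3 at 13.99 to 14.51, against 12.56 to 13.59). Of 6 macrophage markers 3 were higher, Adgre1, C1qa and C1qb, with a mean of the 6 of 10.81 to 11.37 with crofelemer and 10.00 to 11.10 without it. Of 3 neutrophil markers and of 5 dendritic cell markers 2 each were lower, and of 4 eosinophil markers 1 was higher and 2 lower. Of 7 lung tissue markers, a list that holds the endothelial Cldn5 and Pecam1, 5 were lower. Of 4 alveolar type 2 markers 2 were higher and 2 lower. The part of these markers in the result was not tested. Within the first run of records 37 members were called, and the share of all probe sets called in that fit is not given here.

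Among MDI-exposed mice, 23 members were higher with crofelemer and 1 lower, with a median of 0.84, while 15% of all probe sets were higher and 17.5% lower. The same limit of separate normalization holds. The higher members were 8 of 9 licensing and replication genes, both mitotic exit genes and 4 of 6 mitotic kinases. With them came 3 of 5 cyclin and Cdk1 genes and 2 of 4 nucleotide synthesis genes. E2f1 and Melk were higher as well, and Mki67 was not called. Only 1 of 7 spindle and cytokinesis genes (Kif2c) and 1 of 8 kinetochore and chromosome genes were higher. Deviations of same-numbered arrays of both groups correlated weakly (r 0.105 to 0.167, 3 pairs). With the replicate number as a block, a fit of those 3 pairs alone called 14 members, 13 higher and 1 lower. It left out the other MDI arrays without crofelemer, so the block and the fewer arrays cannot be told apart.

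Plk1 was at 12.36, 10.11 and 11.89 on the 3 MDI arrays with crofelemer and 7.68 to 10.38 with a median of 8.93 on the 13 without it, higher by 2.64 ± 0.46 (adjusted p = 8.84e-06). The lowest array with crofelemer lay inside the range of those without it. Cdc20 was higher by 2.12 ± 0.41, Rrm2 by 1.95 ± 0.36 and Mcm5 by 1.79 ± 0.32. The other MCM subunits were higher too, by 1.21 ± 0.29 for Mcm2, 1.10 ± 0.28 for Mcm3, 0.88 ± 0.24 for Mcm4 and 1.20 ± 0.24 for Mcm6.

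Cenpe, the kinetochore motor that carries chromosomes to the spindle equator, was the 1 member lower, with 7.72, 5.68 and 6.82 with crofelemer and 6.60 to 9.24 with a median of 8.20 without it, a difference of -1.32 ± 0.39 (adjusted p = 0.00708). The groups overlapped. Without the second MDI array with crofelemer the difference was -0.79 (adjusted p = 0.19). Mki67 had -0.74 ± 0.40 and Nusap1 -0.47 ± 0.35, not called. The count of members called was 15 without the first MDI array with crofelemer, 16 without the third and 30 without the second. All 4 B-cell markers were lower with crofelemer here too (6.43 to 6.83, against 7.70 to 9.60), and 4 of 7 T cell markers, 3 of 4 endothelial, 3 of 5 dendritic cell and 3 of 4 eosinophil markers were lower. Of 6 macrophage markers Marco and C1qa were higher and Mrc1 lower, with a mean of the 6 of 11.27 to 11.91 with crofelemer and 10.89 to 11.72 without it. Of 3 fibroblast markers Col1a1 and Col3a1 were higher and Dcn lower (14.21 to 14.48, against 13.44 to 14.63). Of 7 lung tissue markers 5 were lower, and of 4 alveolar type 2 markers 2 were higher and 2 lower. The part of these markers in the result was not tested.

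**Figure D3:**
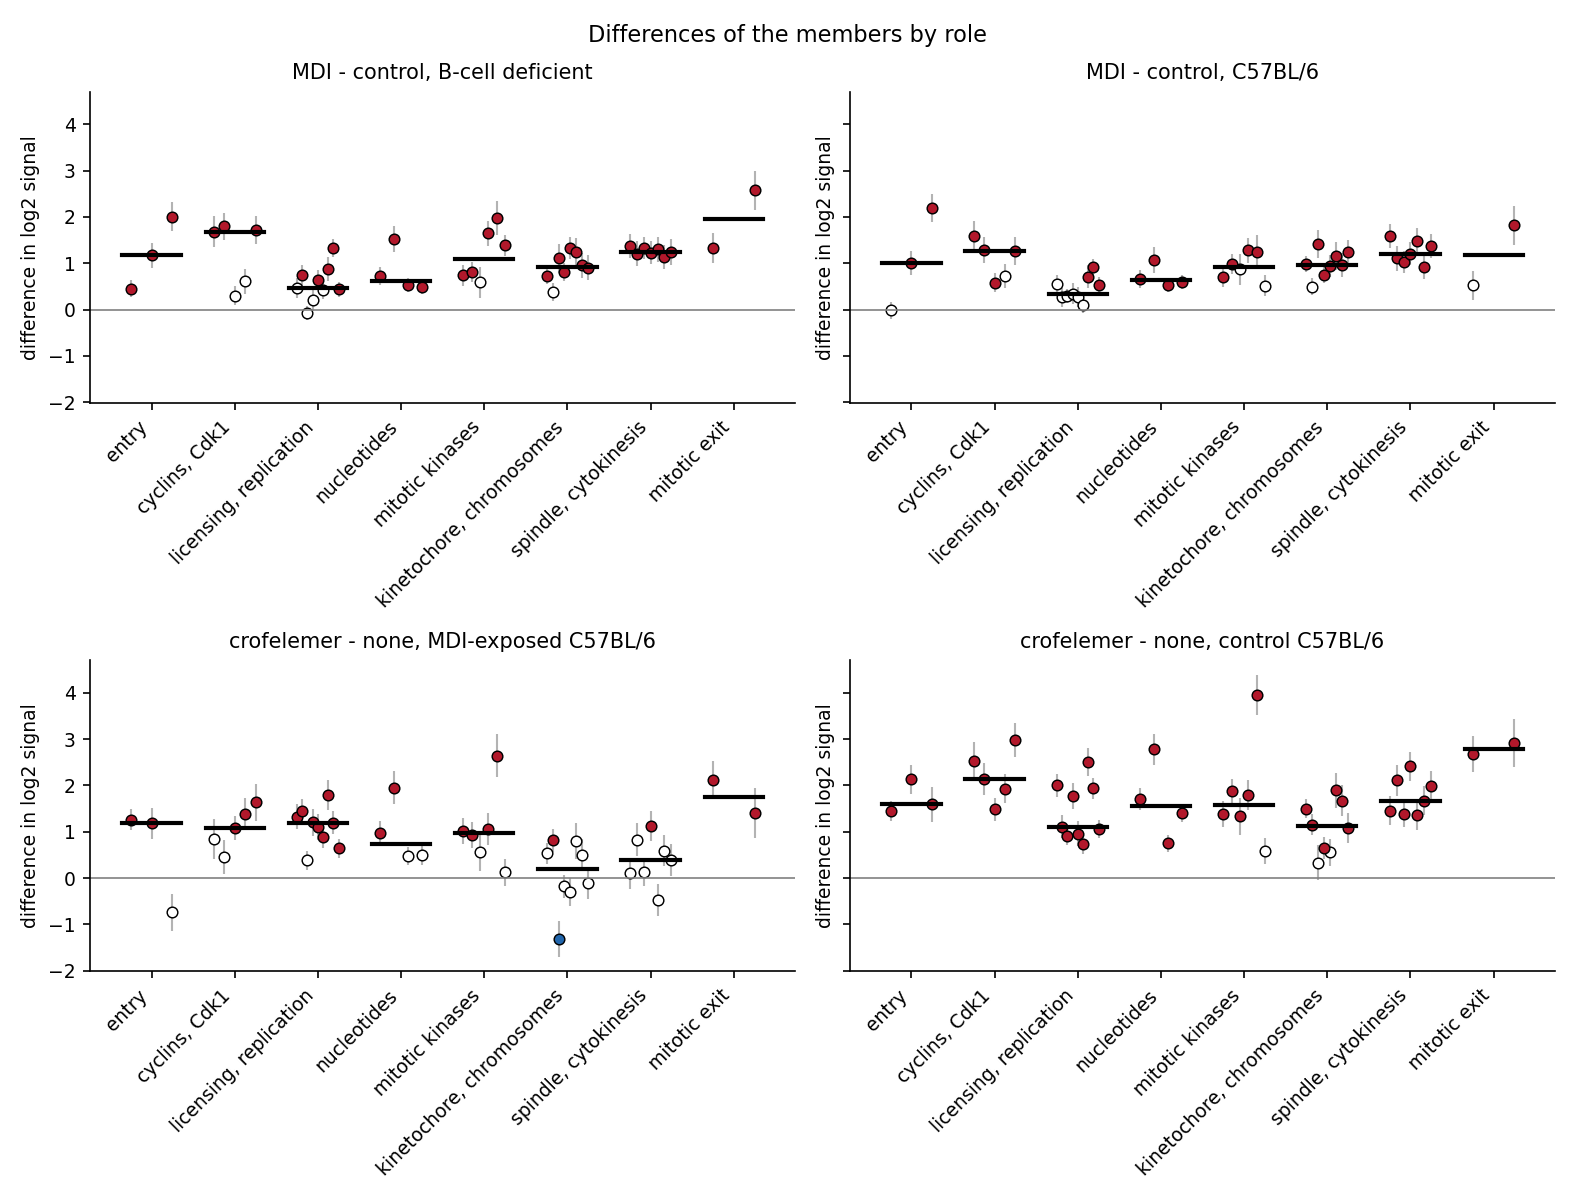
Differences in log2 signal (points, with whiskers of 1 SE) of the 44 members in 4 comparisons, by role, with red points higher, blue lower and white not called, and the bar the median of the role. MDI in C57BL/6 mice gives a median of 1.20 for spindle and cytokinesis genes and 0.34 for licensing and replication genes, and crofelemer in MDI-exposed mice gives 0.40 and 1.20 for the same roles.

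The roles can be set side by side as medians of differences. Spindle and cytokinesis genes had 1.24 for MDI in B-cell deficient mice, 1.20 for MDI in C57BL/6 mice, 1.67 for crofelemer in control mice and 0.40 for crofelemer in MDI-exposed mice. Licensing and replication genes had 0.47, 0.34, 1.11 and 1.20 in the same order of comparisons. The comparisons in C57BL/6 mice share arrays, and the difference between roles was not tested.

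**Figure D4:**
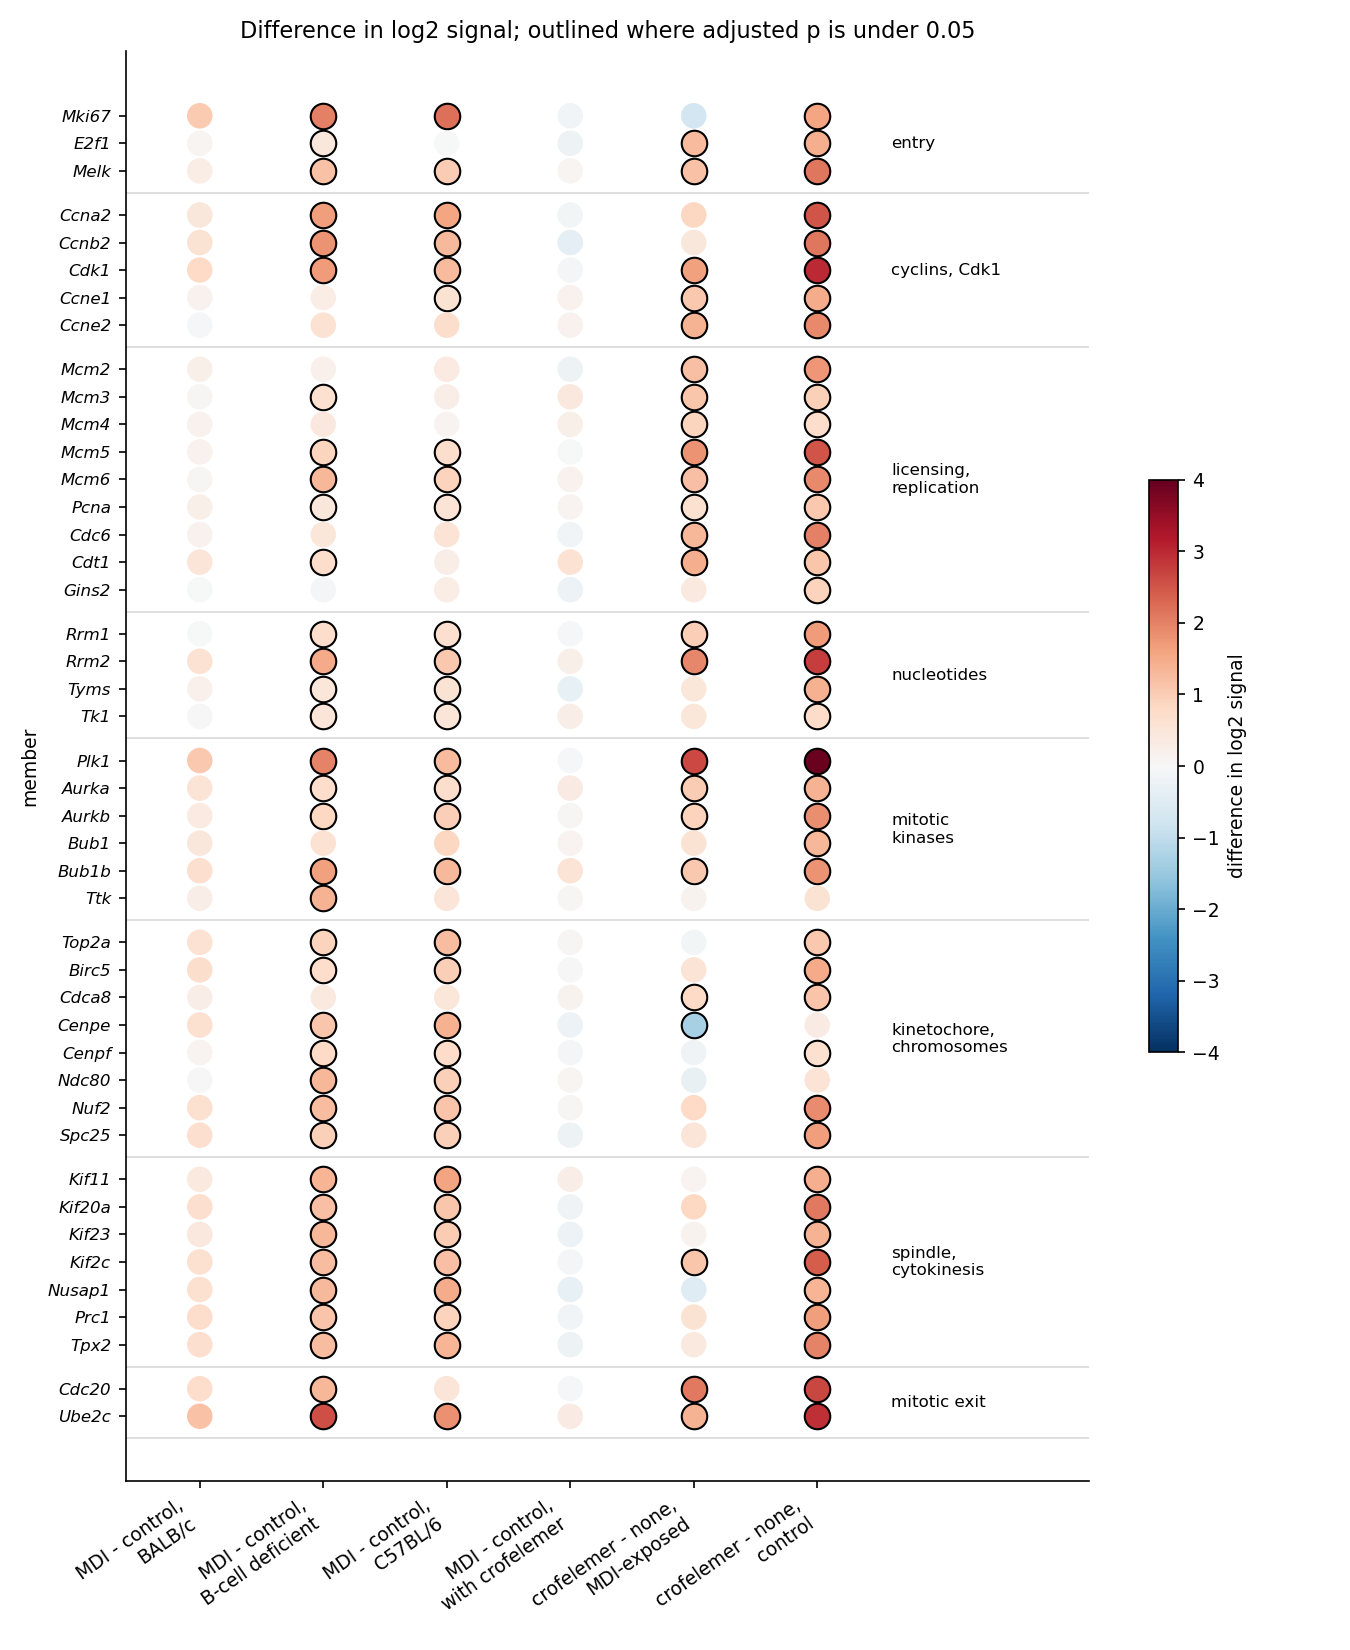
Differences in log2 signal (colour) of the 44 members, ordered by role, in 6 comparisons, with an outline where the adjusted p is under 0.05. Outlines mark 36 members for MDI in B-cell deficient mice, 32 for MDI in C57BL/6 mice, 41 for crofelemer in control mice and 24 for crofelemer in MDI-exposed mice, and none for MDI in BALB/c mice or under crofelemer.

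Other genes of the pathway were read from 5 further lists, chosen with earlier results of these data known. Of 35 further mitosis genes 26 were higher and none lower for MDI in C57BL/6 mice, and 27 in B-cell deficient mice. Those with the smallest adjusted p in C57BL/6 mice were Ncapg, a condensin subunit, at 1.37 ± 0.23 (adjusted p = 3.05e-05), Knl1, a kinetochore scaffold, at 1.24 ± 0.22, Smc2, a core subunit of condensin, at 0.73 ± 0.14, and Depdc1a at 1.37 ± 0.26. Of 26 further S phase genes 6 were higher in C57BL/6 mice and 12 in B-cell deficient mice, led in C57BL/6 mice by Uhrf1, which passes on DNA methylation marks, at 0.91 ± 0.23 (adjusted p = 0.00432). The medians were 0.81 for the mitosis genes and 0.29 for the S phase genes in C57BL/6 mice.

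Of 10 D cyclins and G1 regulators 1 rose, E2f3 at 0.40 ± 0.13, and 1 fell in C57BL/6 mice, Ccnd2 (cyclin D2) at -0.62 ± 0.12 (adjusted p = 0.000385). Of 18 inhibitors and quiescence genes 1 rose, Ccng2 at 0.56 ± 0.14, and 2 fell, Cdkn1a, which encodes the inhibitor p21, at -0.999 ± 0.22 (adjusted p = 0.000939), and Btg2 at -0.56 ± 0.14. Cdkn1a had -1.11 ± 0.22 in B-cell deficient mice, where 5 of the 18 rose and 2 fell. Of 8 DREAM and MuvB genes 2 rose in C57BL/6 mice, Lin9 at 0.46 ± 0.14 and Tfdp1 at 0.48 ± 0.15, and 1 in B-cell deficient mice. Beside these counts stand all probe sets, of which 5.3% rose and 9.23% fell in C57BL/6 mice and 16.2% rose and 20.7% fell in B-cell deficient mice, and nothing about these 3 short lists is read from their counts. None of these lists had a call for MDI in BALB/c mice or under crofelemer.

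With crofelemer in control mice 32 of the 35 further mitosis genes were higher and 2 lower, 15 of 26 S phase genes were higher, 7 of 10 D cyclins and G1 regulators were higher, and of 18 inhibitors 2 were higher and 5 lower, against 17.6% higher and 21.4% lower over all probe sets. The 2 lower mitosis genes, named after their values were seen, were Pttg1 (securin) at -1.49 ± 0.17 and Smc4, a condensin subunit, at -1.95 ± 0.22. Both were lower with crofelemer in MDI-exposed mice too, at -1.15 ± 0.18 and -2.22 ± 0.23. In that comparison 13 of the 35 were higher, against 15% higher and 17.5% lower over all probe sets.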

How the data were processed

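The authors deposited 1 log2 value per probe set and array (22206 by 51), and the submitters' processing notes name Transcriptome Analysis Console (version, normalization and log base not given in the sources used here, so log2 was inferred from a range of 1.86 to 20.91). No value was rescaled. Total RNA was extracted with a Qiagen RNeasy kit and 250 ng were labelled with biotin, per the labels' protocols. Of the 51 arrays 49 entered 8 groups, and 2 whose labels contradict each other on crofelemer were left out. Of all probe sets 19572 carried 1 gene symbol and 2634 none, and where a symbol had several, as 55 did, the one with the highest mean was used.

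The means of the 8 groups were fitted together with limma 3.58.1 (R 4.3.3), which left 41 residual degrees of freedom. Variances were moderated along a trend with intensity, tests were 2-sided, and Benjamini-Hochberg adjustment ran over all 22206 probe sets. Values are differences in log2 ± SE from the model, or group means ± SD. The number of arrays limits the precision. Members and lists were chosen with earlier results of these data known. All members could be named. Values per array are given by rule for Mki67 and for the member with the highest mean in each role. The rule also takes the extremes of each MDI comparison. Of each further list up to 4 genes are named, by adjusted p in C57BL/6 mice. Values of Birc5, Ttk, Cdk1 and Cenpe and of the single arrays flagged below stand outside the rule and were named for their results. The main fit held no block for the replicate numbers in any comparison, and the block was an alternative setting only. Every same-numbered pair's deviations correlated over 0.1 for crofelemer in MDI-exposed mice alone (3 pairs, r 0.105 to 0.167). For MDI in C57BL/6 mice 4 of 6 pairs passed 0.1, with r from -0.222 to 0.184. No label says that the numbers mark a shared animal or day. Promoter sequences are RefSeq's, of GRCm38.p6. The model was also run on simulated data with independent noise. Those data had no separately normalized sets, runs of records or pairs, so they say nothing about these limits. Plots were made in Python 3.11.15 using matplotlib 3.10.9. Alternatives covered scaling, dim probe sets, the variance trend, array weights, the arrays in the model, runs of records, the replicate block and leaving out each array.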

Additional observations from a re-analysis of the deposited data

Results flagged for a closer look

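Single arrays stood far from their group in 6 of 180 groups of values tested (Dixon's criterion, which chance meets in about 1 of 20). The groups with 3 arrays and the 13 C57BL/6 MDI arrays without crofelemer were not tested in this way. Aurka was at 6.71 on B-cell deficient control array 2, with the other 8 at 5.63 to 6.17, and Mcm5 at 6.94 on B-cell deficient control array 8, with the others at 5.58 to 6.23. On C57BL/6 control array 2 Ccna2 was at 8.28 (others 6.39 to 7.03), Aurkb at 7.97 (others 6.49 to 6.94) and the mean of the 44 members at 7.496 (others 6.588 to 6.867). Mcm4 was at 7.77 on C57BL/6 control array 6, with the others at 8.21 to 8.41.

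The MDI effect differed between groups by the contrast itself for Ttk, by 0.87 between B-cell deficient and C57BL/6 mice, and for Mki67, by -2.33 between mice with and without crofelemer. Both calls depended on single arrays and settings, and both contrasts cross sets that look separately normalized.

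The 2 arrays in no group were C57BL/6 arrays titled as MDI-exposed whose labels contradict each other on crofelemer, and a source label on both names the control exposure. Their means over the members were 8.02 (title with crofelemer, drug label without) and 8.655 (title without, drug label with). The means lay at 7.67 to 9.028 on MDI arrays with crofelemer, 7.858 to 9.322 on control arrays with crofelemer, 7.135 to 8.508 on MDI arrays without it and 6.588 to 7.496 on control arrays without it.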

How the results depend on the processing

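No called value changed sign under any alternative. Under settings other than leaving out an array, 3265 of 3376 single-member values kept their side of the threshold. Of the rest 66 lost the call and 45 gained it. Of the 2125 not called under either, 84 changed sign. Leaving out each array in turn gave 33 to 38 members called for MDI in B-cell deficient mice, 27 to 35 for MDI in C57BL/6 mice, 39 to 42 for crofelemer in control mice, 15 to 30 for crofelemer in MDI-exposed mice (15 without the first and 30 without the second MDI array with crofelemer), 0 to 1 for the B-cell deficient minus C57BL/6 contrast, 0 to 4 for the crofelemer contrast (4 without C57BL/6 control array 2) and 0 for the others. The B-cell deficient minus C57BL/6 contrast called 0 with median centring, with the run of records as a term and without the 4 narrow controls. It called 0 without dim probe sets too, where Ttk itself was among those left out and so was not tested. The crofelemer contrast called 2 with median centring and 0 with the groups of the comparison only, within the first run and with the replicate block. MDI in C57BL/6 mice called 19 within the first run, and crofelemer in control mice 27 of the 28 members kept without dim probe sets. The first run holds fewer arrays, and the fit without dim probe sets fewer probe sets. The cause of the changed counts was not tested. Shares of all probe sets called in the alternative fits are not given here, so their counts describe the members alone. The replicate block kept only arrays whose number occurs in every group of the comparison. Where arrays were left out, the block and the fewer arrays cannot be told apart. With it, crofelemer in MDI-exposed mice called 14, MDI in C57BL/6 mice 26, MDI in B-cell deficient mice 40 and crofelemer in control mice 41. The B-cell deficient contrast called 1, and MDI in BALB/c mice, MDI under crofelemer and the BALB/c contrast 0. Centring each array put the all-probe-set median difference at 0.14 for crofelemer in MDI-exposed and 0.19 in control mice and to -0.11 for MDI in B-cell deficient mice, with 28, 43 and 34 members called. The other probe sets of a member could not be tried, since each member had 1. Limits are 3 arrays in 3 of the groups, sets that look separately normalized, a log base that is inferred, and whole lung, where the dividing cells are unnamed.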

Other observations

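On the 2 arrays in no group Mki67 was at 11.71 and 13.16, Plk1 at 10.18 and 10.23, Ube2c at 8.57 and 10.11, and Pcna at 14.59 and 15.08. Their array means were 7.449 and 7.500.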
